A study of Mus musculus with 18 samples.

Results

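The cytosolic heat shock chaperones are described here as 10 mouse genes, Hspa1b, Hspa1a, Hspa8, Hsph1, Dnajb1, Bag3, Hsp90aa1, Hsp90ab1, Hspb1 and Hspe1, found on the array by symbol, from a set drawn up with earlier results of these data known. Of the 22180 genes with a probe set that the array annotation gives 1 symbol, 9 are members of this group, with 13 such probe sets, and 2 further probe sets carry a member's symbol together with another. Hsp90ab1, the constitutive cytosolic Hsp90, has no probe set in the annotation used here and is named only. Hspe1 belongs to the set by its name, but its protein works in the mitochondrial matrix.

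The arrays come from germ-free C57BL/6 mice, animals raised without microbes, that were inoculated with gut microbiota from old or young donors at 5 to 6 weeks of age and kept for 8 weeks. OMT recipients received the microbiota of donors about 24 months old (2 years in the protocol). YMT recipients received that of young donors, aged 4 weeks by the protocol and 5 to 6 weeks by the design text. Both groups were thus colonised young hosts, 12 or 13 weeks old at sampling depending on the label, and no germ-free mouse is among the 18 arrays. Small intestine and liver each contributed 5 OMT and 4 YMT arrays, 1 per sample, and the titles call the samples biological replicates. How many donors or cages stood behind a group is not given in the labels, so donor age and a shared donor or cage cannot be told apart. The comparison asks how tissues of a young host differ with the age of the microbiota donor.

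Chaperones bind unfolded stretches of other proteins and release them in cycles driven by ATP. Hsp70 proteins (Hspa1a, Hspa1b, Hspa8) take up clients delivered by J-domain proteins such as Dnajb1. Nucleotide exchange factors, among them Bag3 and the Hsp110 protein Hsph1, let the client go. Hsp90 (Hsp90aa1, Hsp90ab1) acts later on kinases and steroid receptors, small heat shock proteins such as Hspb1 hold unfolded proteins without ATP, and Hspe1 is the lid of the mitochondrial chaperonin formed by Hspd1. Heat, oxidants and unfolded protein in the cytosol activate heat shock factor Hsf1, which binds heat shock elements, repeats of GAA units in alternating orientation, in front of many of these genes.

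RefSeq promoter windows of build GRCm38.p6, 250 bases before to 50 after a start, were at hand for 7 members, namely Hspa1a, Hspa1b, Hsph1, Dnajb1, Hspb1, Hspe1 and Bag3. The 250 bases before the start are printed for the pair of inducible Hsp70 genes, which are almost alike in sequence, for Hsph1, which moved beside Hspa1b, and for Hspe1, whose window holds the longest element. Capitals mark matches to GAANNTTC or TTCNNGAA, the 2 possible arrangements of 2 adjacent units. Hspa1b lies at chr17:34959239-34959488 and Hspa1a at chr17:34972157-34972406, both on the minus strand. Hsph1 lies at chr5:149636337-149636586 on the minus strand, for the first of its 2 windows, and Hspe1 at chr1:55087898-55088147 on the plus strand.
Hspa1b: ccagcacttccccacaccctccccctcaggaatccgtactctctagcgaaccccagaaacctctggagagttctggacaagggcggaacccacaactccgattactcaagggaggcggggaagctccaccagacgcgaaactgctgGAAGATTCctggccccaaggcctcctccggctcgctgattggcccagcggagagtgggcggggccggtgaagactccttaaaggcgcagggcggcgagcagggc
Hspa1a: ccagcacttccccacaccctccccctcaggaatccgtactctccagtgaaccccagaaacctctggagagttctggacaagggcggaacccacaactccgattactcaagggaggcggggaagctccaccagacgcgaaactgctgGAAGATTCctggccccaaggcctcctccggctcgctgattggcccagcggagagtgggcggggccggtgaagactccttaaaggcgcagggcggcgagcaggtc
Hsph1: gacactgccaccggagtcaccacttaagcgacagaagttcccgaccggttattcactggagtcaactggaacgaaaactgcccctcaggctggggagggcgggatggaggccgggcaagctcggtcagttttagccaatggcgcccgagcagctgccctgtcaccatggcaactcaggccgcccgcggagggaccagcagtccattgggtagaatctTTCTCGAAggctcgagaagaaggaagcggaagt
Hspe1: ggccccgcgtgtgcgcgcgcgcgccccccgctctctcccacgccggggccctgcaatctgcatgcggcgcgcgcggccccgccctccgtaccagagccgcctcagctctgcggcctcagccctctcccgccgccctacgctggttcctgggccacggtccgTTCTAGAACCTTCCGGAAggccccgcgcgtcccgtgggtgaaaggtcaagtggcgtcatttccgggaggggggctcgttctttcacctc

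The Hspa1a and Hspa1b stretches matched at 247 of 250 bases, or 98.8%, and both held GAAGATTC starting 104 bases before the start. Motifs of 2 units are palindromes, so both strands are searched at once. They occurred in the 300-base windows of 6 of the 7 members, all but Dnajb1. In Bag3 the match lay after the start. Among all 32851 windows of this length, 15.1% held such a motif. Motifs of 3 units (GAANNTTCNNGAA or TTCNNGAANNTTC), which contain overlapping motifs of 2, occurred in Hsph1, after the start, and in Hspe1. The share was 0.603% of all windows and 0.662% of genes. A motif of 4 units (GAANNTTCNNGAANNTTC or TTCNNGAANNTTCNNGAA) was present in Hspe1 alone among the members, as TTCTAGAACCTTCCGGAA starting 89 bases before the start. It occurred in 0.0244% of all windows and 0.0296% of genes. These are matches of letters, not measured binding.

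All levels below are the deposited RMA values on a log2 scale, in which a difference of 1 is a 2-fold change, and all differences are OMT minus YMT with a standard error (SE) from limma. A gene was tested in a tissue if its probe set was brighter than the median probe set on 4 or more of the 9 arrays. The p-values were adjusted by the Benjamini-Hochberg method over all genes tested there, with a threshold of 0.05. Array medians lay between 4.39 and 4.51 in intestine and between 4.12 and 4.22 in liver. The tissue labels held for their defining markers: Alb, the hepatocyte's albumin, was at 13.21 to 13.26 in liver and at 3.67 to 4.68 in intestine. Vil1, villin of the intestinal brush border, was at 3.77 to 4.29 in liver and at 11.97 to 12.27 in intestine. In intestine 9 members were tested, 8 of them above the median on all 9 arrays, and Hspb1 on 7. In liver 8 were tested, each above the median on all 9, while Hspa1a did not reach the filter. One intestine array, YMT replicate 4, stood apart from the other YMT arrays in several of these genes. In bulk tissue, less RNA per cell and fewer cells of a type cannot be told apart.

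In the liver, 6 of the 8 chaperone genes tested rose in OMT recipients and none fell. Hspa1b, an inducible Hsp70, rose 12.3-fold, Hsph1 5.35-fold, Bag3 2.84-fold, Hsp90aa1 2.45-fold, Dnajb1 2.21-fold and Hspa8 1.87-fold. Among all 13380 genes tested in liver, 10.4% were higher and 8.78% lower at the same threshold (1388 and 1175 genes, or 1156 and 1492 after quantile normalization within the tissue). At an unadjusted p under 0.05 by limma, 7 of the 8 were higher, against 17.4% of all genes. Rises of at least 2-fold that also passed the adjusted threshold were found in 5 of the 8, against 0.964% of all genes. In 7 of the 8 every OMT array lay above every YMT array, against 9.64% of all genes. The median difference over the 8 was 1.22, and over all genes it was -0.005.

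**Figure D1:**
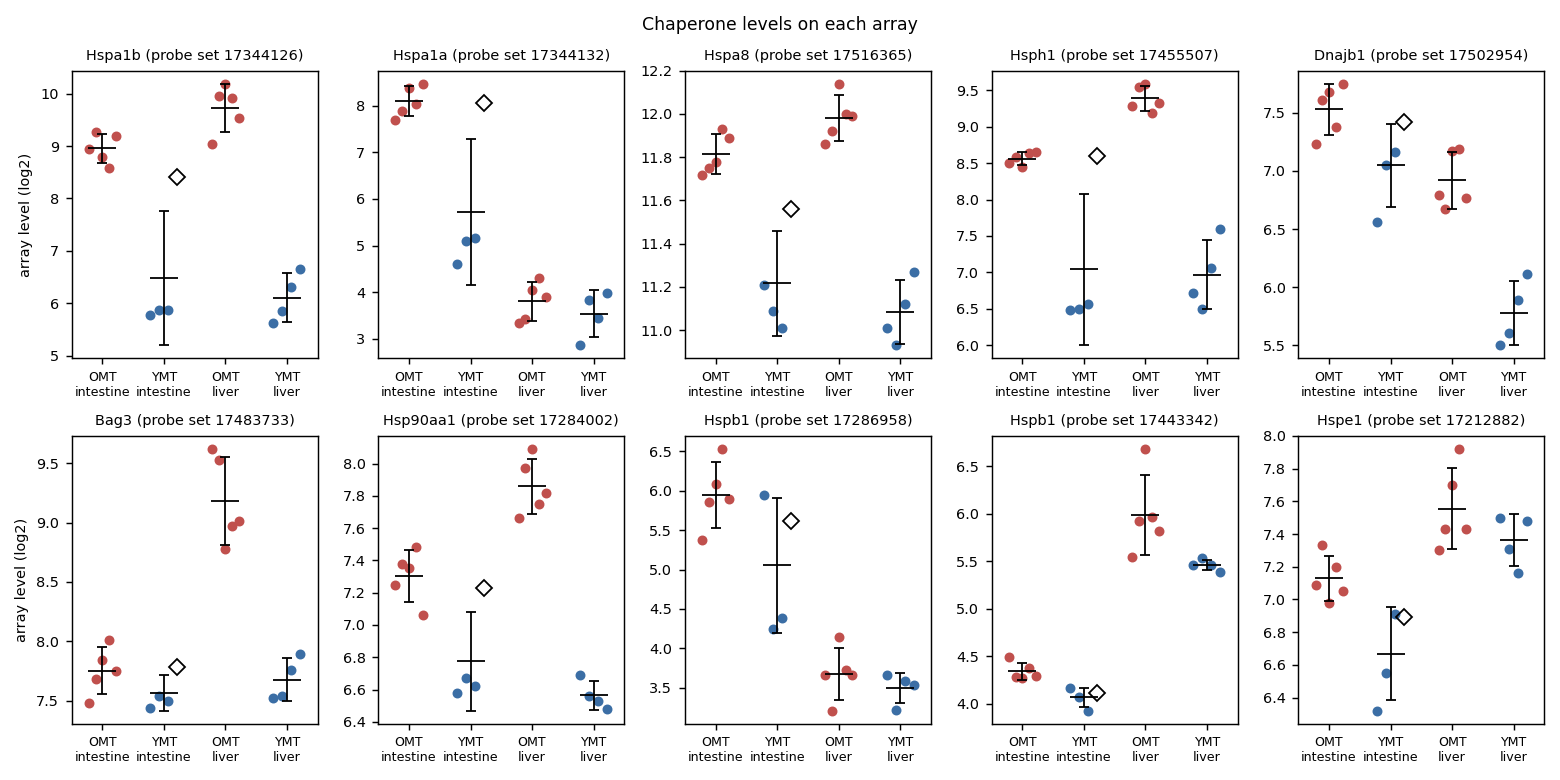
Array level (log2, y axis) of the probe sets that stood for a chaperone gene, in OMT and YMT intestine and OMT and YMT liver. Further probe sets of Hspa8 and those shared with another symbol are not drawn. Points are single arrays, bars the mean ± SD of 5 OMT or 4 YMT arrays, and the open diamond is intestine YMT replicate 4. Liver OMT points of Hspa1b, Hspa8, Hsph1, Dnajb1, Bag3 and Hsp90aa1 lie above all liver YMT points. The diamond lies near the intestine OMT points for Hspa1b, Hspa1a, Hsph1 and Hsp90aa1. It also lies inside the OMT range for Dnajb1, Bag3 and Hspb1 on probe set 17286958.

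Among the Hsp70 genes in liver, Hspa1b (probe set 17344126) read 9.04, 9.95, 10.19, 9.92 and 9.53 on the OMT arrays, against 5.62, 5.85, 6.30 and 6.66 on the YMT arrays. The lowest OMT liver thus stood 2.38 above the highest YMT liver. The difference was 3.62 ± 0.25 (SE; adjusted p = 1.26e-05), with a 95% confidence interval from 3.06 to 4.18. Hspa1a (probe set 17344132), the neighbouring gene that encodes almost the same protein, read 3.34, 3.42, 4.04, 4.30 and 3.90 in OMT livers and 2.86, 3.84, 3.44 and 3.99 in YMT livers. These groups overlapped, and the probe set exceeded the array's median on 1 of 9 liver arrays, so it stayed out of the test over genes. In the fit of all probe sets its difference was 0.27 ± 0.27 (adjusted p = 0.665), from a dim level. A further probe set, 17336820, annotated to both genes, was also dim, above the median on 2 of 9 liver arrays, with a difference of 1.33 (adjusted p = 0.00389 over all probe sets). Probe sets of these near-identical genes can detect each other's transcripts, so how the signal divides between Hspa1a and Hspa1b is uncertain.

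Hspa8, the constitutive Hsp70 of the cytosol, read 11.86, 11.92, 12.14, 12.00 and 11.99 in OMT livers and 11.01, 10.93, 11.12 and 11.27 in YMT livers on probe set 17516365. The groups did not overlap, and the difference was 0.90 ± 0.09 (adjusted p = 8.72e-05). The other 3 probe sets of Hspa8 alone, 17548744, 17548379 and 17434475, differed by 1.05, 1.06 and 1.16 in liver, also with no overlap between the groups. Of these, 17548744 and 17548379 read almost the same on every array, such as 9.59 and 9.58 on OMT liver replicate 1. They are thus not separate evidence. Probe set 17516383, shared with the small nucleolar RNA Snord14e, which lies within an Hspa8 intron, overlapped between the groups at 0.36.

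Of the partners of Hsp70, Hsph1 (probe set 17455507) read 9.29, 9.55, 9.59, 9.19 and 9.32 in OMT livers and 6.72, 6.50, 7.06 and 7.59 in YMT livers, a difference of 2.42 ± 0.19 (adjusted p = 2.33e-05). Its gap between the lowest OMT and the highest YMT liver was 1.60. Bag3 (probe set 17483733), which hands Hsp70 clients to autophagy, read 9.62, 9.53, 8.78, 8.97 and 9.01 in OMT livers and 7.52, 7.54, 7.76 and 7.89 in YMT livers. All OMT livers stood above all YMT livers, OMT replicates 1 and 2 highest, and the difference was 1.50 ± 0.17 (adjusted p = 0.000254). Dnajb1 (probe set 17502954), the inducible J-domain partner, read 6.79, 6.67, 7.17, 7.19 and 6.77 in OMT livers and 5.50, 5.61, 5.89 and 6.11 in YMT livers, with no overlap and a difference of 1.14 ± 0.15 (adjusted p = 0.000534).

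Hsp90aa1 (probe set 17284002), the inducible cytosolic Hsp90, read 7.66, 7.97, 8.09, 7.75 and 7.82 in OMT livers and 6.69, 6.56, 6.53 and 6.48 in YMT livers. Both groups were tight, with SDs of 0.17 and 0.09, and the difference was 1.29 ± 0.09 (adjusted p = 1.51e-05). The remaining members did not pass in liver. Hspb1 (probe set 17443342) read 5.54, 5.92, 6.68, 5.97 and 5.82 in OMT livers and 5.46, 5.53, 5.46 and 5.39 in YMT livers, a difference of 0.53 ± 0.18 (adjusted p = 0.0676) in which the lowest OMT value lay 0.01 above the highest YMT value. Its other probe set, 17286958, was above the median on 1 of 9 liver arrays. Hspe1 (probe set 17212882) read 7.30, 7.43, 7.70, 7.92 and 7.43 in OMT livers and 7.50, 7.31, 7.16 and 7.48 in YMT livers, overlapping groups with a difference of 0.19 ± 0.13 (adjusted p = 0.335).

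The liver counts held when arrays were left out. With any 1 liver array left out, 6 or 7 of the 8 rose. Of the 13254 to 13347 genes tested in these fits, 927 to 1518 were higher. OMT replicates 1 and 2, livers that stood apart in earlier results of these data, were also left out together. Then 7 of 8 rose, against 8.71% of all genes higher and 7.48% lower, with Hspb1 as the addition at 0.70 (adjusted p = 0.0308), and Hspa1b stood at 3.77.

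In the small intestine the same genes leaned the same way, but 2 of 9 passed. Hspa1b rose 5.57-fold and Hspa8 1.51-fold in OMT recipients, and none of the 9 fell. Of all 13238 genes tested there, 1.04% were higher and 3.1% lower. Hspa1b was the 1 member that both passed and was higher by at least 2-fold, against 0.257% of all genes. Hspa1a (5.17-fold) and Hsph1 (2.87-fold) were also higher by more than 2-fold but did not pass. At an unadjusted p under 0.05 by limma, 8 of the 9 were higher, all but Bag3, against 7.5% of all genes. The median difference over the 9 was 0.60, with a range from 0.19 to 2.48, and over all genes it was -0.02. Every OMT array lay above every YMT array for Hspa1b, Hspa8 and Hspe1, or 3 of 9, against 2.8% of all genes.

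Hspa1b read 8.94, 9.26, 8.79, 8.59 and 9.19 in OMT intestines, against 5.78, 5.86, 5.87 and 8.40 in YMT intestines. YMT replicates 1 to 3 lay together, and YMT replicate 4 came within 0.19 of the lowest OMT intestine. The difference was 2.48 ± 0.48 (adjusted p = 0.0244), with a 95% confidence interval from 2.65-fold to 11.7-fold. Hspa1a, bright in this tissue, read 7.70, 7.89, 8.37, 8.04 and 8.47 in OMT intestines and 4.60, 5.09, 5.16 and 8.05 in YMT intestines. Here YMT replicate 4 lay inside the OMT range, and the difference of 2.37 ± 0.59 did not pass (adjusted p = 0.053). Hsph1 read 8.50, 8.58, 8.44, 8.64 and 8.65 in OMT intestines and 6.49, 6.50, 6.57 and 8.60 in YMT intestines, with the same array inside the OMT range and a difference of 1.52 ± 0.38 (adjusted p = 0.0552).

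Hspa8 read 11.72, 11.75, 11.78, 11.93 and 11.89 in OMT intestines and 11.21, 11.09, 11.01 and 11.56 in YMT intestines on its brightest probe set. Its groups did not overlap, YMT replicate 4 was again the highest YMT array, and the difference was 0.60 ± 0.11 (adjusted p = 0.0201). Of the 3 other probe sets of Hspa8 alone, 17548379 and 17548744, almost alike on every array, differed by 1.21 and 1.18 (adjusted p = 0.0403 and 0.0448 over all probe sets). Probe set 17434475 differed by 0.81 (adjusted p = 0.0648), so the size depended on the probe set. In that limma fit of all probe sets the brightest Hspa8 probe set was at adjusted p = 0.08625. Hspa1b was at 0.09965 in it, so neither passed there. The probe set shared with Snord14e was at 0.51 with overlapping groups, and the dim one shared by Hspa1a and Hspa1b at 0.75. Hsp90aa1 read 7.25, 7.38, 7.35, 7.48 and 7.06 in OMT intestines and 6.58, 6.67, 6.62 and 7.23 in YMT intestines, where YMT replicate 4 exceeded the lowest OMT array, and its difference of 0.53 ± 0.14 did not pass (adjusted p = 0.0619).

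The rest showed smaller or more scattered differences in intestine. Dnajb1 read 7.23, 7.61, 7.68, 7.38 and 7.75 in OMT intestines and 6.56, 7.05, 7.16 and 7.42 in YMT intestines (0.48 ± 0.17, adjusted p = 0.127). Bag3 read 7.48, 7.68, 7.84, 8.01 and 7.75 in OMT intestines and 7.44, 7.54, 7.50 and 7.78 in YMT intestines, overlapping groups with a difference of 0.19 ± 0.11 (adjusted p = 0.344). Hspe1 read 7.09, 7.33, 6.98, 7.20 and 7.05 in OMT intestines and 6.32, 6.55, 6.91 and 6.89 in YMT intestines, groups parted by 0.07 (0.46 ± 0.13, adjusted p = 0.0726). Hspb1 was represented here by probe set 17286958, at 5.37, 5.86, 6.08, 6.53 and 5.90 in OMT intestines and 5.95, 4.25, 4.39 and 5.62 in YMT intestines. Its YMT values were split, with replicates 1 and 4 inside the OMT range, and the difference of 0.90 ± 0.36 did not pass (adjusted p = 0.176). The probe set that served in liver, 17443342, exceeded the median on 0 of 9 intestine arrays. It read 4.27 to 4.49 in OMT and 3.93 to 4.17 in YMT intestines, groups that did not overlap (0.27, adjusted p = 0.223 over all probe sets). The Hspb1 probe sets ranked the tissues in opposite order. In OMT recipients 17286958 averaged 5.95 in intestine and 3.68 in liver, and 17443342 averaged 4.34 and 5.99. Which of them tracks Hspb1 was not tested.

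YMT replicate 4 was the highest YMT intestine for 7 of the 9 members, whereas it was the highest for 21.5% of all genes, and it reached or passed the lowest OMT intestine for 6. The mean level over the 9 genes was 7.92 to 8.20 on the OMT intestines, 6.73 to 6.80 on YMT replicates 1 to 3 and 7.95 on YMT replicate 4. Without that array 5 of 9 rose and none fell, where 0.517% of all genes were higher and 1.28% lower, and 7 of 9 had groups that did not overlap, against 4.09% of all genes. The 5 were Hspa1a (3.14 ± 0.20, adjusted p = 0.000271), Hspa1b (3.12 ± 0.15, adjusted p = 3.56e-05), Hsph1 (2.04 ± 0.08, adjusted p = 9.23e-06), Hspa8 (0.71 ± 0.08, adjusted p = 0.0116) and Hsp90aa1 (0.68 ± 0.10, adjusted p = 0.0185). Other arrays moved the count as well. Hspa1b missed the threshold without OMT replicate 2 or 3 or YMT replicate 1 or 3, where adjusted p lay between 0.0518 and 0.0646. In each case 1 of 9 was left, and 49 to 103 of the 13158 to 13182 genes tested were higher. Without YMT replicate 2 none of the 9 passed by limma, with Hspa1b at adjusted p = 0.0827 and Hspa8 at 0.0723, where 0.274% of all genes were higher. At an unadjusted p under 0.05, 7 of 9 were higher in that fit, against 6.2% of all genes. Without OMT replicates 1 and 2 together, the intestines of highest snoRNA level at 7.31 and 6.93 against 6.10 to 6.53 on the other 3 OMT and 6.11 to 6.49 on the YMT intestines, 0 of 9 passed, against 0.565% of all genes higher. At an unadjusted p under 0.05, 9 of 9 were higher in that fit, against 7.18% of all genes.

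**Figure D2:**
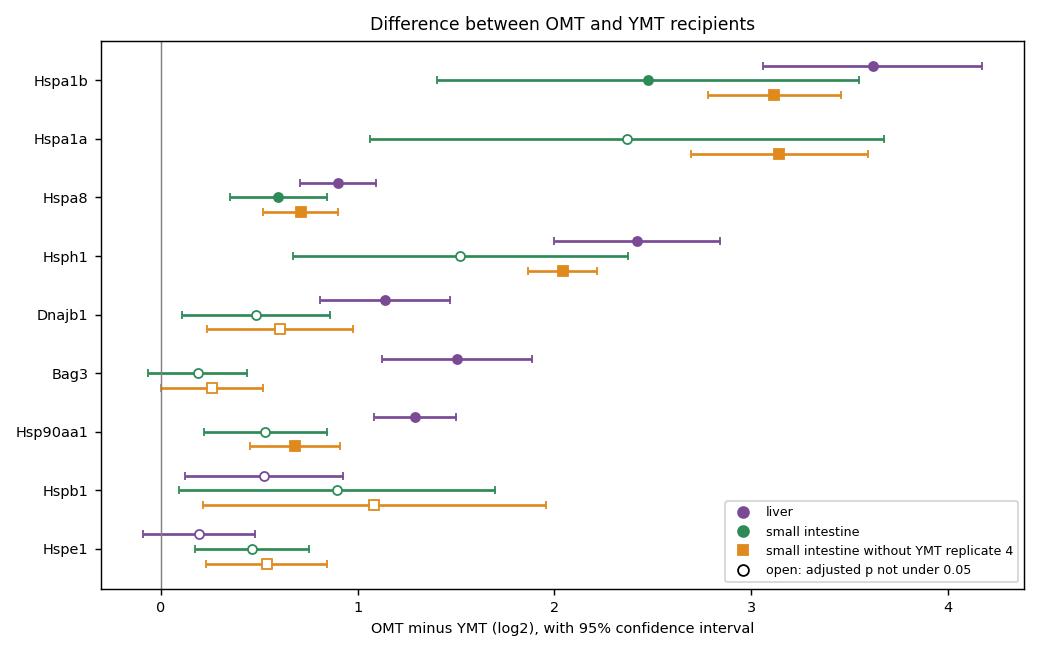
Difference of OMT minus YMT (log2, x axis) for each chaperone gene with its 95% confidence interval from limma, in liver, in small intestine and in small intestine without YMT replicate 4. Filled symbols passed an adjusted p under 0.05. Hspb1 is represented by a different probe set in each tissue. Without the 1 array the intervals of Hspa1a, at 3.14, and Hsph1, at 2.04, are narrower than with it, at 2.37 and 1.52. Bag3 stands at 1.50 in liver and at 0.19 in intestine.

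Whether the change with donor age was larger in one tissue than in the other was tested on all 18 arrays, as liver difference minus intestine difference, over 14747 genes. Of the 9 members, 2 differed, both larger in liver, and none passed the other way, while 6.9% of all genes were higher and 3.98% lower in this contrast (1017 and 587 genes, or 727 and 741 after quantile normalization within each tissue). Bag3 had the larger gap, 1.32 ± 0.22 (adjusted p = 0.000761), from a difference of 1.50 in liver and 0.19 in intestine. Hsp90aa1 differed by 0.76 ± 0.18 (adjusted p = 0.00864), from 1.29 in liver and 0.53 in intestine. Hspa1b, although 3.62 in liver and 2.48 in intestine, was not shown to differ between the tissues (1.14 ± 0.58, 95% confidence interval -0.06 to 2.35, adjusted p = 0.211). Nor were Hsph1 (0.90 ± 0.45, adjusted p = 0.209), Hspa8 (0.30 ± 0.14, adjusted p = 0.185) and Dnajb1 (0.66 ± 0.24, adjusted p = 0.0798). For Hspa1a the contrast was -2.10 ± 0.67 (adjusted p = 0.0519), from a liver level that is dim in both groups, and for Hspe1 it was -0.27 ± 0.19 (adjusted p = 0.388). Hspb1 was at 0.25 ± 0.21 on the probe set used for liver and at -0.23 on the mean of both its probe sets, so its sign depends on that choice.

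Leaving out 1 array moved these contrasts. Without intestine YMT replicate 4 the contrast was 0.50 for Hspa1b (adjusted p = 0.373), 0.38 for Hsph1 (adjusted p = 0.342) and 0.19 for Hspa8 (adjusted p = 0.378). Bag3 (1.25, adjusted p = 0.00271) and Hsp90aa1 (0.61, adjusted p = 0.0127) passed in that fit as well. Hspa1a then passed in the opposite direction, larger in intestine, at -2.88 (adjusted p = 6.45e-05). Over its 26 alternatives Hspa1a passed in 7, with values from -2.88 to -1.73 and adjusted p from 6.45e-05 to 0.11. Dnajb1 passed without intestine YMT replicate 1 (0.82, adjusted p = 0.0237).

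Set in order within a probe set, Hspa1b averaged 9.73 ± 0.45 in OMT liver, 8.95 ± 0.28 in OMT intestine, 6.48 ± 1.28 in YMT intestine and 6.11 ± 0.46 in YMT liver (SD). The last 2 did not differ beyond their spread. Bag3 averaged 9.18 ± 0.37 in OMT liver, 7.75 ± 0.20 in OMT intestine, 7.68 ± 0.18 in YMT liver and 7.57 ± 0.15 in YMT intestine, and the 3 lower groups lay within 1 SD of their neighbours. Hsp90aa1 averaged 7.86 ± 0.17 in OMT liver, 7.30 ± 0.16 in OMT intestine, 6.78 ± 0.31 in YMT intestine and 6.57 ± 0.09 in YMT liver, and the YMT groups lay within 1 SD of the intestinal one. Whether both tissues were normalized together is not stated in the labels, so these orders across tissues are descriptions.

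Agreement of the genes across arrays was examined after each gene's group means were removed, so that the donor groups themselves could not produce it. In intestine, the deviations of Hspa1b correlated positively with those of all 8 other members over 9 arrays, with a median Pearson r of 0.69 and a range from 0.28 to 0.97. Hsph1 gave r = 0.97 and Spearman rho = 0.87, and Hspa1a r = 0.94 and rho = 0.82. None of the 15 pairs of both tissues passed in exact permutation tests within groups, two-sided, with Benjamini-Hochberg adjustment. The smallest adjusted p was 0.307 for r in intestine and 0.221 in liver, and 0.297 and 0.128 for rho. Without adjustment, 0 of 8 pairs in intestine and 3 of 7 in liver were under 0.05 for r. The intestinal agreement was examined again without the 2 arrays whose Hspa1b deviations lay farthest from the median deviation, YMT replicates 1 and 4. Replicate 1, at 5.78, lay beside YMT replicates 2 and 3, at 5.86 and 5.87, whereas replicate 4 was at 8.40. These 2 arrays were left out together, so the part of each was not told apart. Without them the median r was -0.17, with a range from -0.59 to 0.45, and 4 of 8 were positive.

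In liver, 6 of 7 members correlated positively with Hspa1b, with a median r of 0.57. Hspa8 (r = 0.83, rho = 0.83) and Hsph1 (r = 0.72, rho = 0.80) came first by rho, with unadjusted exact permutation p-values of 0.0156 and 0.0351 for r, and Dnajb1 gave r = 0.75 and rho = 0.60 (exact permutation p = 0.0441 for r). Bag3 gave r = -0.18, its highest values lying on OMT replicates 1 and 2. YMT replicate 1 and OMT replicate 1 had the Hspa1b deviations farthest from the median deviation. Without these arrays all 7 were positive, with a median r of 0.44. No liver array held all members at their highest: OMT replicate 3 had the highest OMT value for 5 of 8 genes, OMT replicate 4 for 2 and OMT replicate 1 for 1.

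**Figure D3:**
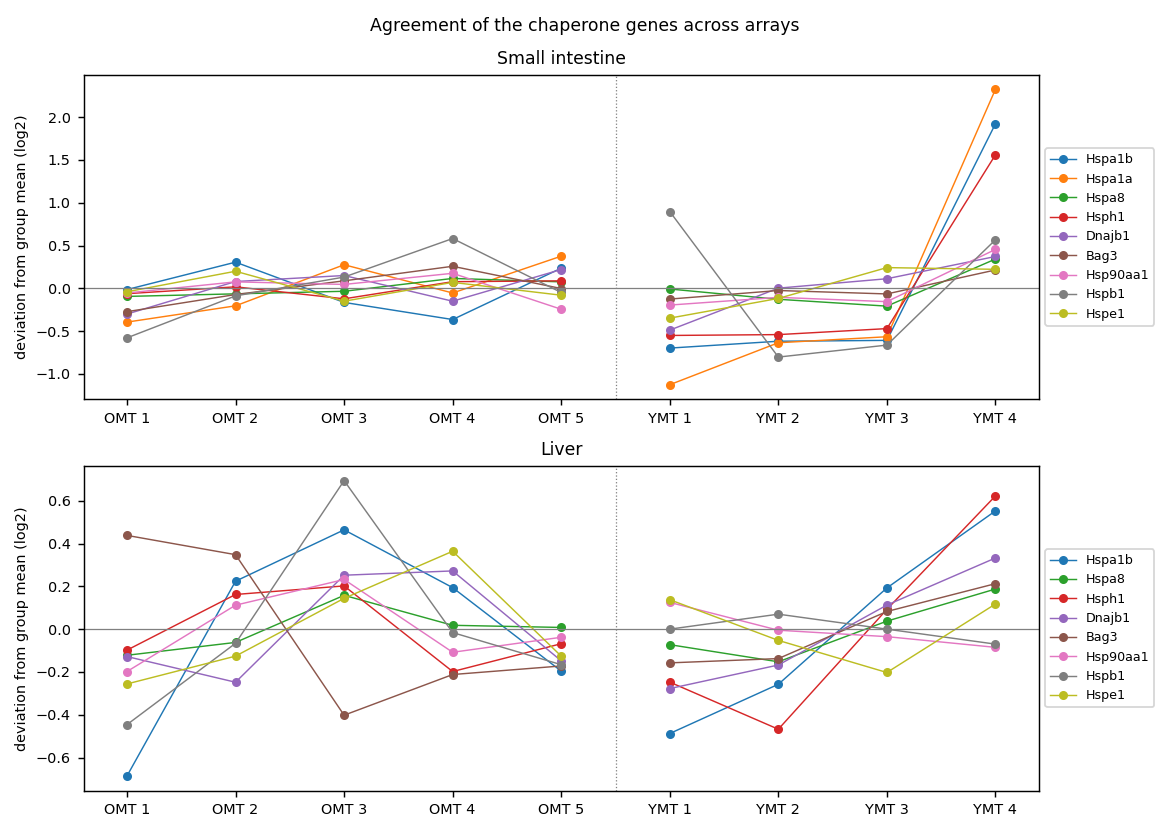
Deviation of each chaperone gene from its group mean (log2, y axis) on each array, intestine above and liver below. Lines join the points of a gene and carry no order of replicates. Intestine YMT replicate 4 lies above its group mean for all 9 genes, most for Hspa1a, Hspa1b and Hsph1. For these 3 it lies farther from its mean than any OMT intestine or any liver array does.

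The genes whose pattern over the 18 arrays, after the 4 group means were removed, was most like the mean of 8 members in that treatment were taken from 11962 genes tested in both tissues. They were Ifi205 (Pearson r = 0.82), Med21 (0.81), Cacybp (0.80), Stip1 (0.78) and Asf1a (0.78), where the median gene had r = 0.02 and the 99th percentile was 0.60. Intestine YMT replicate 4 enters all of these values. Of the 5, Stip1, which links Hsp70 to Hsp90, rose in OMT liver by 0.97 ± 0.13 (adjusted p = 0.00052), and so did Cacybp, by 0.48 ± 0.11 (adjusted p = 0.0133). Ifi205, Med21 and Asf1a did not pass in either tissue.

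Other parts of the cytosolic chaperone machinery were read from lists chosen with earlier results of these data known. For comparison, 10.4% of all genes tested were higher and 8.78% lower in liver, and 1.04% and 3.1% in intestine. Without intestine YMT replicate 4, 0.517% of all genes were higher there. Of 10 Hsp90 cochaperones tested in liver, 6 rose and none fell (median 0.44), with Chordc1 at 1.23 ± 0.13, Stip1, Ahsa2, a relative of the Hsp90 ATPase activator Ahsa1 (0.90 ± 0.11), and the immunophilin Fkbp4 (0.45 ± 0.09) of smallest p. In intestine 2 of 9 rose (median 0.41), Ahsa1 (0.49 ± 0.11, adjusted p = 0.032) and Ahsa2 (0.48 ± 0.10, adjusted p = 0.0312), and without YMT replicate 4 Chordc1 joined them. Of 7 other J-domain proteins 4 rose in liver, Dnajb2 (0.89 ± 0.12), Dnajb4 (0.72 ± 0.10), Dnaja2 (0.36 ± 0.08) and Dnajb6 (0.26 ± 0.06). In intestine Dnajb2 alone passed (0.47 ± 0.11, adjusted p = 0.0373), and without YMT replicate 4 none of the 7 did by limma (1 at an unadjusted p under 0.05). Of 4 other Hsp70 and Hsp110 genes, Hspa4l (0.93 ± 0.17) and Hspa4 (0.32 ± 0.06), both of the Hsp110 branch, rose in liver. None passed in intestine by limma (1 at an unadjusted p under 0.05), where Hspa4l was at 0.48 ± 0.13 (adjusted p = 0.0608).

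Among small heat shock proteins, Hspb8, the partner of Bag3 in autophagy of misfolded proteins, rose in liver by 1.04 ± 0.09 (adjusted p = 3.1e-05), and the other 3 of 4 tested did not pass. The 6 other BAG proteins and Hsp70 regulators showed no rise in liver, where Bag4 (-0.37 ± 0.08) and Bag1 (-0.27 ± 0.06) fell, and none passed in intestine (2 at an unadjusted p under 0.05). Of 7 genes listed as mitochondrial chaperones 2 rose in liver, where 10.4% of all genes were higher. They were Hspd1 (0.31 ± 0.08), the chaperonin that Hspe1 caps, and Clpp (0.32 ± 0.08), a protease subunit and not itself a chaperone. Of 8 subunits of the cytosolic chaperonin CCT 2 rose there, Cct3 (0.41 ± 0.12) and Cct6a (0.36 ± 0.09). Without OMT replicates 1 and 2, 5 of the CCT subunits rose, against 8.71% of all genes. Neither the mitochondrial nor the CCT list held a call in intestine (1 and 0 at an unadjusted p under 0.05). The factors Hsf2 and Hsf4 and the Hsf1-binding protein Hsbp1 passed in neither tissue (1 of 3 in liver and 0 of 3 in intestine at an unadjusted p under 0.05), and Hsf1 has no probe set in the annotation used here. Of 3 further heat-induced genes tested in liver, Zfand2a rose by 1.26 ± 0.14 (adjusted p = 0.000241) and Cacybp rose, while the collagen chaperone Serpinh1 fell by 0.46 ± 0.13 (adjusted p = 0.0278), a call not made without OMT replicates 1 and 2. In intestine Cacybp was at 0.60 ± 0.15 (adjusted p = 0.0553) and passed without YMT replicate 4, and the other two passed in neither fit. Chaperones of the endoplasmic reticulum, a separate system, rose in 11 of 11 genes in liver (median 1.19), against 10.4% of all genes. In intestine 2 of 11 rose (3 without YMT replicate 4), against 1.04% of all genes (0.517% without that array).

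**Figure D4:**
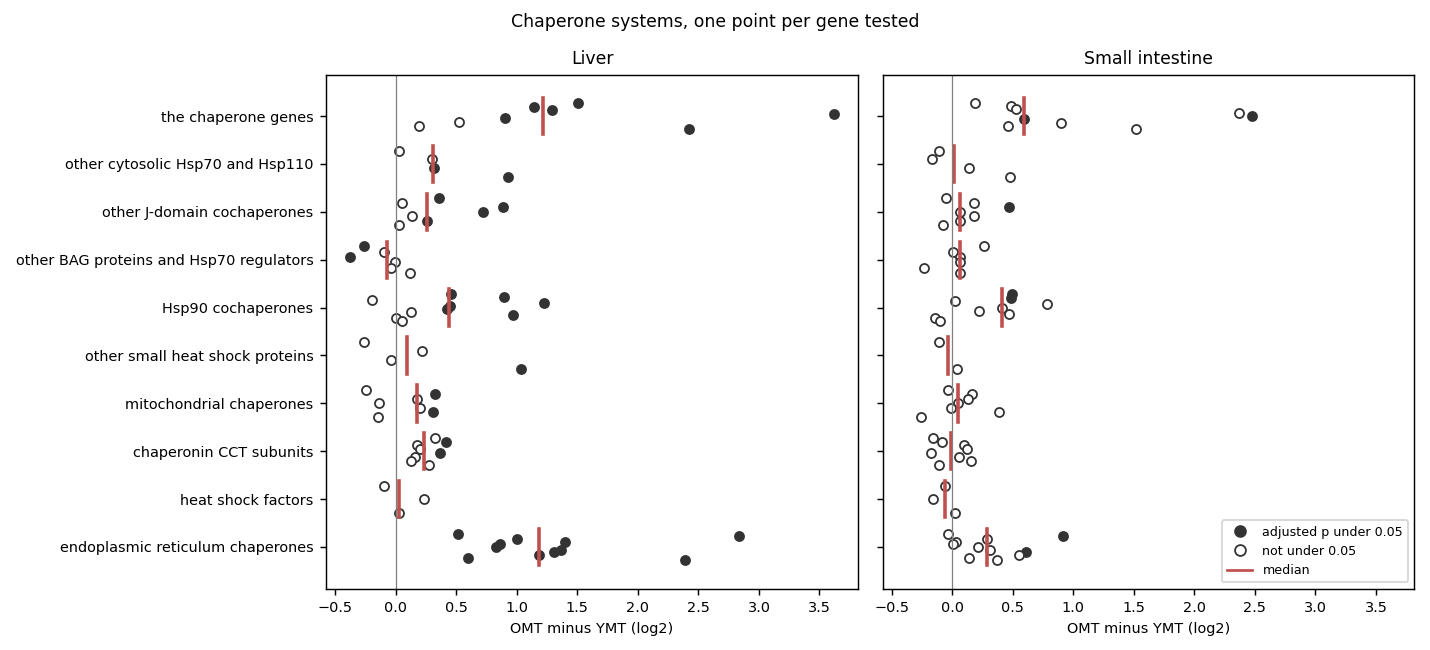
Difference of OMT minus YMT (log2, x axis) for every tested gene of each chaperone list, liver on the left and small intestine on the right. Filled points passed an adjusted p under 0.05 and red lines are list medians, which for the chaperone genes of this report stand at 1.22 in liver and 0.60 in intestine, against 0.44 and 0.41 for Hsp90 cochaperones and 0.24 and -0.01 for CCT subunits.

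Cell type markers were read beside these results, and their part in them was not tested. In liver the 6 hepatocyte markers averaged 12.49 to 12.58 on OMT and 12.49 to 12.57 on YMT arrays, and Cyp2e1 alone of them rose (0.24 ± 0.06). Some markers of other liver cells fell in OMT recipients. They were 3 of 5 endothelial (Cdh5, Kdr and Pecam1) and 3 of 5 fibroblast and stellate cell markers (Col3a1, Col1a1 and Pdgfrb). Of smooth muscle markers 2 of 7 fell (Tagln and Acta2), and of cholangiocyte markers 1 of 3, Krt7. Others of these lists leaned the other way without passing, among them Sox9 (0.35 ± 0.12), Dcn (0.16 ± 0.08) and Synm (0.16 ± 0.09). None of 4 leukocyte markers passed in liver by limma, or at an unadjusted p under 0.05, and 8.78% of all liver genes fell. Without OMT replicates 1 and 2 these counts were 2, 2, 1 and 1, and 0 of 6 hepatocyte markers passed. Endothelial markers averaged 6.03 to 6.28 in OMT livers and 6.38 to 6.67 in YMT livers, and fibroblast and stellate cell markers 6.27 to 6.47 and 6.52 to 6.89. In intestine 0 of 6 enterocyte, 0 of 7 smooth muscle and 0 of 6 leukocyte markers passed by limma. At an unadjusted p under 0.05 these counts were 2, 0 and 1. Of goblet cell markers 1 of 3, Clca1, fell, a call not made without YMT replicate 4. At an unadjusted p under 0.05 by limma, 3 of 3 goblet cell markers differed both with and without that array. Their list medians were -0.44 and -0.45. Enterocyte markers averaged 11.96 to 12.37 in OMT intestines and 11.15 to 12.27 in YMT intestines, with YMT replicate 4 at 11.80 inside the YMT range. Smooth muscle markers averaged 5.08 to 5.83 in OMT and 5.21 to 5.68 in YMT intestines, YMT replicate 4 being the highest YMT array.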

How the data were processed

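Each sample was hybridised to 1 Affymetrix whole-transcript array, from 250 ng of total RNA per the labels' protocols. The authors deposited log2 values from RMA, run in Affymetrix Expression Console according to the submitters' processing notes; the sources used here do not give versions. RMA corrects background, normalizes quantiles and summarises probes, and it narrows the differences of dim probe sets. Base 2 is inferred from the values' range, since the labels name no base. No 2 arrays held identical values, and the number of arrays limits the precision.

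Of 41345 probe sets, 23521 have 1 symbol, 1814 several and 16010 none in the annotation used here. Symbols were updated by gene identifier, with 23328 matches, through a RefSeq table of GRCm38.p6, which also supplied the promoter windows. Probe sets are given no coordinates, as the array's build is not named. The probe set of highest mean in a tissue stood for its gene. OMT was compared with YMT, groups taken from the sample titles, by limma 3.58.1 (lmFit and eBayes, in R 4.3.3), two-sided, on the 9 arrays of a tissue and, for the tissue difference, on all 18 in 4 groups. Simulated arrays with known changes were used to test the fits. Adjusted p-values for further probe sets of a gene come from a fit of all 41345.

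The members and lists were chosen with earlier results of these data known. All members and all their probe sets are named, and of each other list up to 4 genes of smallest p per tissue. Further genes, named where a count is small, were chosen after their values were seen. Alternatives were other filters, trend and robust options of eBayes, all arrays in 1 fit, array weights, other scaling, other handling of probe sets, the replicate number as a block, arrays left out and a threshold of 0.10. Figures were drawn with matplotlib 3.10.9.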

Additional observations from a re-analysis of the deposited data

Results flagged for a closer look

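Among 34 groups of member values, 4 held an array far from the rest by Dixon's criterion, which chance alone meets in about 1 of 20 groups, and all 4 were intestine YMT replicate 4. Its Hspa1b level was 8.40, with the next YMT intestine at 5.87. Its Hspa1a level was 8.05, with the next at 5.16. Its Hsph1 level was 8.60, with the next at 6.57, and its Hsp90aa1 level was 7.23, with the next at 6.67. The 4 genes share this array, so they are not independent of each other. In the liver array that bears the same group and number, 5 of 8 members were also the highest of the YMT livers, where 19.9% of all genes were, and 1 of 8 reached the OMT range. The labels do not say whether arrays of the same number come from 1 animal.

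The difference between OMT and YMT was larger in liver than in intestine for Bag3, by 1.32 (adjusted p = 0.000761), and for Hsp90aa1, by 0.76 (adjusted p = 0.00864), in the limma contrast over all 18 arrays.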

How the results depend on the processing

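In liver the count of 6 members stayed at 6 or 7 over all 21 alternatives. All genes called there, in either direction, ranged from 1459 to 3578 over 20 alternatives, against 2563. None of the 160 single-member values recomputed changed direction or lost a call. In intestine 188 of 188 such values kept their direction. The count of 2 members there became 6 at an adjusted p under 0.10, 6 with all 18 arrays in the fit and 8 with array weights. It was 5 with a filter at the 75th percentile and 5 after quantile normalization within the tissue. Of all 13238 genes tested, 138 were higher in the main fit. This became 382 at 0.10, 365 with all 18 arrays, 368 with array weights and 211 after quantile normalization. With the 75th percentile filter 193 of 7324 were higher. With 1 array left out the member count ranged from 0 to 5, and it was 0 without OMT replicates 1 and 2 together. Without these and YMT replicate 4, an alternative chosen after seeing the data, it was 4. Hspa1b missed the threshold in 7 and Hspa8 in 2 of 21 alternatives (adjusted p 3.56e-05 to 0.119 and 0.000981 to 0.0723). The 548 intestinal genes called, in either direction, became 1331 at 0.10, 310 with no filter, 1445 with all 18 arrays and 1172 with array weights. They numbered 71 without the 3 arrays and 147 to 636 with 1 array left out. The number was 228 without OMT replicate 2, 275 without OMT replicate 3, 283 without YMT replicate 1, 147 without YMT replicate 2 and 236 without YMT replicate 4.

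For the tissue difference, the 2 members became 4 at 0.10, 3 larger in liver and 1 in intestine, where 2595 genes were called against 1604, and 2 or 3 with 1 array left out, where genes ranged from 1100 to 1884. Hspb1 reversed to -0.23 (adjusted p = 0.613) with the mean over its probe sets. The causes of these shifts were not tested.

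Correlations of same-numbered deviations were -0.06 to 0.32 between OMT and YMT intestines, -0.18 to 0.09 between livers and -0.04 to 0.13 across tissues. Arrays of unlike number were not compared, so these values cannot decide whether replicate numbers pair the arrays. Within a tissue, a replicate block drops OMT replicate 5. With it 2 members were called in intestine, Hspa8 and Hsp90aa1 (adjusted p = 0.034 and 0.044), and not Hspa1b at 2.42 (adjusted p = 0.0612). Of 13238 genes tested in intestine, 111 were higher and 347 lower with the block. In liver 6 members were called, where 740 of 13380 genes were higher and 719 lower. For the tissue difference the block joined intestine and liver arrays of the same donor group and number, and it kept OMT replicate 5. That treats them as 1 animal, which the labels do not state. In that fit 4 members were called, 3 larger in liver and 1, Hspa1a, larger in intestine (adjusted p = 0.0164). Of all 14747 genes in it, 871 were higher and 503 lower. Genes called in liver became 1459 with the block within that tissue, against 2563 without it. With 1 liver array left out they ranged from 1790 to 2684. Dim probe sets limit Hspa1a in liver and Hspb1 in intestine.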

Other observations

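Genes of the immediate early response, transcription factors and phosphatases that are induced within minutes of many stimuli, were read beside the chaperones. In liver, where 10.4% of all genes were higher and 8.78% lower, 2 of 13 rose in OMT recipients, a share near that of all genes. They were Jun (0.73 ± 0.18, adjusted p = 0.017) and Atf3 (0.38 ± 0.11, adjusted p = 0.0323), while Dusp1 fell by 0.92 ± 0.26 (adjusted p = 0.0308), with a list median of -0.14 against -0.005 over all genes. Without OMT replicates 1 and 2 none of the 13 passed by limma (4 at an unadjusted p under 0.05). In intestine, where 1.04% of all genes were higher, 1 of 13 rose, Fosb (1.19 ± 0.23, adjusted p = 0.0233), with a list median of 0.09. Cirbp, an RNA-binding protein induced by mild cold, was at -0.51 ± 0.13 in intestine (adjusted p = 0.0599) and at -0.31 ± 0.14 in liver (adjusted p = 0.153), so it passed in neither tissue. No hypothesis was tested on these values.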
